A study of Mus musculus with 8 samples.

Results

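Transcripts of p53 pathway genes were followed in mouse embryonic stem (ES) cells labelled Rbp2f/f and Rbp2-/-. The cells were compared before and after withdrawal of leukemia inhibitory factor (LIF), a cytokine that sustains their self-renewal. A list of 10 genes was chosen by name, with earlier results of these data known. It held Trp53 itself, its inhibitor Mdm2, and the target genes Perp, Pmaip1, Bax, Bbc3, Ccng1, Sesn2, Trp53inp1 and Zmat3. Every probe set to which the platform's annotation assigned 1 symbol, and that symbol from the list, was used. That gave 8 of the 10 genes and 14 probe sets, of 18194 genes and 45101 probe sets on the array. Trp53 and Bax had no probe set under that rule and were not analysed here, so the level of p53 transcript itself was not measured and the targets are described without it. All 8 remaining genes passed the filter on low intensities that 10916 genes passed, as did 13 of their 14 probe sets.

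Arrays of the Affymetrix mouse genome 430 2.0 type were hybridised with RNA from 4 groups of 2 samples. These were Rbp2-/- ES cells kept for 6 days in medium lacking LIF, Rbp2f/f ES cells kept likewise, Rbp2-/- ES cells in medium with LIF, and Rbp2f/f ES cells in medium with LIF. RBP2 is taken to be the product of Kdm5a, an enzyme that removes methyl groups from lysine 4 of histone H3. The f/f cells carry floxed alleles, which are intact until recombined, and the -/- cells are labelled as having neither allele intact. The labels call the samples of a group biological replicates and do not say which cultures or clones they came from, and p-values therefore reflect only the variation among the samples at hand, which may be partly technical.

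The transcription factor p53 is held at a low level by MDM2, a ubiquitin ligase that binds it and directs its destruction. MDM2 is itself a p53 target, which closes a feedback loop. When DNA damage or other stress frees p53, it binds response elements made of paired half-sites and raises genes that halt the cell cycle, repair DNA or trigger apoptosis. Mouse ES cells have abundant p53, lack a stable G1 checkpoint, and are known to switch from self-renewal to differentiation when p53 is active.

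Promoter windows from RefSeq, on assembly GRCm38.p6, were examined for Mdm2, Ccng1, Sesn2 and Bbc3. No window was examined for Perp, Pmaip1, Trp53inp1 or Zmat3. Each window ran from 250 bases before the annotated start to 50 bases after it. Those of Mdm2 and Ccng1, which rose on LIF withdrawal in Rbp2f/f cells, and of Sesn2, which was not called, are shown for comparison, written along the gene's strand with any exact match to the p53 half-site consensus in capitals. The Mdm2 window is chr10:117710709-117711008 on the minus strand, the Ccng1 window chr11:40755237-40755536 on the minus strand, and the Sesn2 window chr4:132510407-132510706 on the minus strand.
Mdm2: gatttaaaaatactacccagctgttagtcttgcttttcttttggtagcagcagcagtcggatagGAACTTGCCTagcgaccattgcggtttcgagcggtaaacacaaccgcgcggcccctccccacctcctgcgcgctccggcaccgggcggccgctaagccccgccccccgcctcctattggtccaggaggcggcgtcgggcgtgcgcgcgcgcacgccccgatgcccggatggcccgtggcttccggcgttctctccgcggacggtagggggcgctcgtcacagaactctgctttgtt
Ccng1: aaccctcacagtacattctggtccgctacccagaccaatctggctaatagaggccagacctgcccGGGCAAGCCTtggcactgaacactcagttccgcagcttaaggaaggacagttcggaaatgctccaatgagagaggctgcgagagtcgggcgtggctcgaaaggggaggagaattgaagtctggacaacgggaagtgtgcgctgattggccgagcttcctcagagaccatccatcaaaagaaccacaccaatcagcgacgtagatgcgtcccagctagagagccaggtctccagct
Sesn2: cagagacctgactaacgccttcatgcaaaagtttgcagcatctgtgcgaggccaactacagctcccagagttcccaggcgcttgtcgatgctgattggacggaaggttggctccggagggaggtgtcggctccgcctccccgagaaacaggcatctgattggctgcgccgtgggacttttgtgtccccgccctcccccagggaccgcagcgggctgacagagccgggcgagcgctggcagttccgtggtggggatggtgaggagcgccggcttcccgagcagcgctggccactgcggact
Mdm2 held 1 half-site that began at position -186 and Ccng1 held 1 that began at -185, where -1 is the base just before the start. The Sesn2 window and the 3 windows of Bbc3 held none. The half-site was searched by its consensus, which reads the same on both strands, with no mismatch allowed. Of 32851 RefSeq promoter windows, 8.36% held at least 1 such half-site, and 0.0731% held 2 of them within 0 to 13 bases of each other, which none of the printed windows did. A match describes the sequence only. Paired sites with a mismatch were not searched, so the windows were not shown to lack a paired site. Response elements outside these windows, such as that in the first intron of Mdm2, were not searched either.

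The array level and the labels were checked first. Replicate 2 of Rbp2-/- with LIF was dim as deposited, with a 2% trimmed mean at 65.5% of that of the remaining arrays on average. The intensities were therefore quantile normalized and every intensity given below is on that linear, normalized scale. Correlations between the arrays of a group, taken over genes, which are not independent, were then 0.959 to 0.982. Kdm5a, the targeted gene, read 95.0 and 66.8 in Rbp2-/- cells lacking LIF, against 209.6 and 224.8 in Rbp2f/f cells, and with LIF 34.1 and 43.5 in Rbp2-/-, against 134.1 and 167.8 in Rbp2f/f. It was lower on every Rbp2-/- array than on either Rbp2f/f array of the same medium. The difference averaged over media was -1.44 ± 0.15 (limma adjusted p = 0.026). Within Rbp2-/- cells Kdm5a was called higher without LIF than with LIF (0.81 ± 0.22, limma adjusted p = 0.036). In Rbp2f/f it was not (0.49 ± 0.22, limma adjusted p = 0.13). The source of the Kdm5a signal that remained in Rbp2-/- cells was not tested. All 8 ES cell markers chosen for the check were lower without LIF in both genotypes. Their summed intensity was 3375 and 3796 in Rbp2-/- without LIF, against 20888 and 17406 with LIF. In Rbp2f/f the sums were 4448 and 4546 without LIF, against 19910 and 22324 with LIF.

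**Figure D1:**
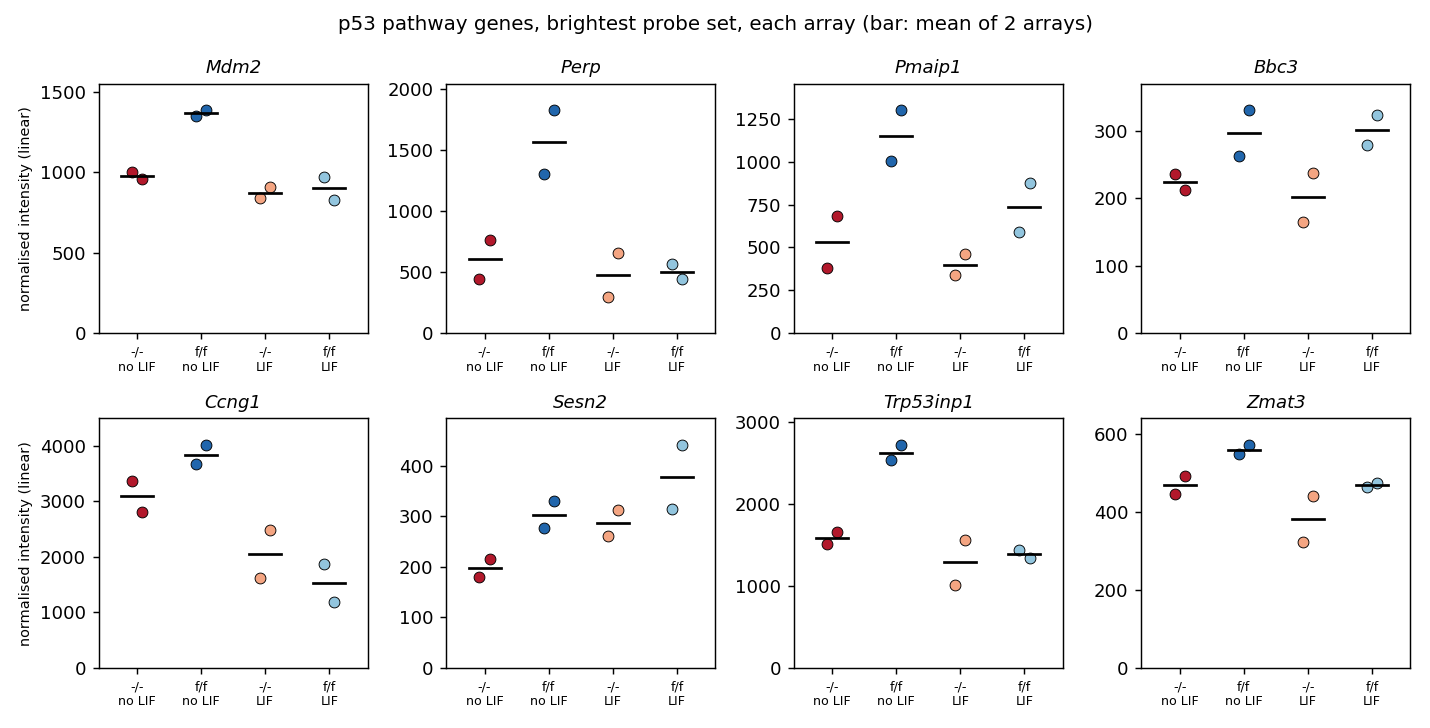
Normalized linear intensity (vertical axes, from 0) of the brightest probe set of each of the 8 measured p53 pathway genes on every array; points are arrays, bars are means of 2 arrays, and the groups run from Rbp2-/- without LIF to Rbp2f/f with LIF. Mdm2, Perp, Pmaip1, Ccng1, Trp53inp1 and Zmat3 stand highest in Rbp2f/f without LIF, where Perp read 1299.1 and 1824.7.

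LIF withdrawal in Rbp2f/f cells raised 4 of the 8 measured members: Mdm2, Perp, Ccng1 and Trp53inp1. They rose by 1.51-fold to 3.02-fold, Perp by the most. None fell, where 13.0% of all tested genes did. Pmaip1, Bbc3, Sesn2 and Zmat3 did not pass the test. Across all tested genes 13.8% were called higher and 26.7% were called in either direction, so a large part of the array moved in this comparison. The test was limma's moderated test on log2(normalized intensity + 16), with p-values adjusted by Benjamini-Hochberg over 10916 genes and a threshold of 0.05, and errors of log2 differences are standard errors. In bulk RNA, fewer cells of a type and less RNA per cell cannot be told apart.

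Mdm2, the ubiquitin ligase that restrains p53, read 1350.8 and 1385.4 in Rbp2f/f cells without LIF, against 970.0 and 830.4 with LIF. The media did not overlap, and the log2 difference was 0.60 ± 0.15 (limma adjusted p = 0.017). Its second probe set gave 0.87 ± 0.19 (adjusted p = 0.015, in a fit over all 20967 probe sets that passed the same filter), and the third lay at or under 13.7 as deposited on every array and was not tested. Likeness to Mdm2 was ranked among tested genes with a plain symbol. Such a symbol has a capital, a lowercase letter, then only lowercase letters or digits, and is not a predicted or clone name. The 3 most alike over the 8 arrays were Sowahb, Tdrd7 and Adam10, with Pearson r = 0.985, 0.979 and 0.975. These arrays share the 2 media and genotypes.

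Among the apoptosis genes, Perp, which encodes a desmosome-associated membrane protein that promotes p53-dependent death, read 1299.1 and 1824.7 in Rbp2f/f without LIF, against 564.9 and 440.6 with LIF. Both arrays without LIF lay above both with LIF, with a log2 difference of 1.60 ± 0.37 (limma adjusted p = 0.013). Pmaip1, which encodes the BH3-only protein NOXA, read 1003.1 and 1300.9 without LIF, against 591.8 and 875.2 with LIF. Its arrays did not overlap either, but its difference of 0.65 ± 0.30 missed the threshold (adjusted p = 0.14). Bbc3, which encodes PUMA, another BH3-only protein that antagonises BCL2 family members, read 262.4 and 330.9 without LIF, against 279.4 and 324.1 with LIF. Its arrays overlapped, and the log2 difference was -0.03 ± 0.22.

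Among the arrest and stress genes, Ccng1, which encodes cyclin G1, a p53 target that recruits a phosphatase to MDM2, read 3670.8 and 4013.8 in Rbp2f/f without LIF, against 1879.4 and 1188.8 with LIF. The log2 difference was 1.35 ± 0.25 (limma adjusted p = 0.0051), and its other probe sets rose by 0.73 ± 0.19 and 1.61 ± 0.21. Trp53inp1, which encodes a stress-induced nuclear protein that aids p53 and autophagy, read 2527.8 and 2713.5 without LIF, against 1438.6 and 1333.8 with LIF. The groups did not overlap, at a log2 difference of 0.91 ± 0.19 (adjusted p = 0.0093). Its dimmer probe set gave 0.61 ± 0.36 and missed the threshold (adjusted p = 0.27).

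Sesn2, which encodes sestrin 2, a leucine sensor that restrains mTORC1, read 276.3 and 329.7 in Rbp2f/f without LIF, against 315.1 and 440.9 with LIF. Its arrays overlapped, with a log2 difference of -0.29 ± 0.22. Zmat3, which encodes a zinc finger RNA-binding protein, read 547.6 and 571.2 without LIF, against 463.1 and 475.2 with LIF. Its arrays did not overlap, and its difference of 0.25 ± 0.18 missed the threshold (limma adjusted p = 0.35). In all, 6 of the 8 members had both arrays without LIF above both with LIF, where 33.2% of all tested genes did, and none had both below, where 35.1% did. At an unadjusted p under 0.05 the same 4 members passed, against 39.9% of all tested genes. The Rbp2f/f arrays without LIF also enter the genotype comparison without LIF, whose shift was known when the members were chosen. The member counts on withdrawal are therefore descriptions.

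The count of 4 depended on single arrays. Ccng1 alone passed without replicate 2 of Rbp2f/f lacking LIF, and Ccng1 and Trp53inp1 passed without replicate 2 of Rbp2f/f with LIF. Ccng1 and Perp passed where a gene's probe sets were averaged. Mdm2 was lost without replicate 1 of Rbp2f/f lacking LIF, and also on the intensities as deposited and after median centring, so its call depended on the quantile normalization. Ccng1 passed under all 18 alternatives, with adjusted p from 0.0014 to 0.046, Perp and Trp53inp1 under 16 each, and Mdm2 under 12.

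**Figure D2:**
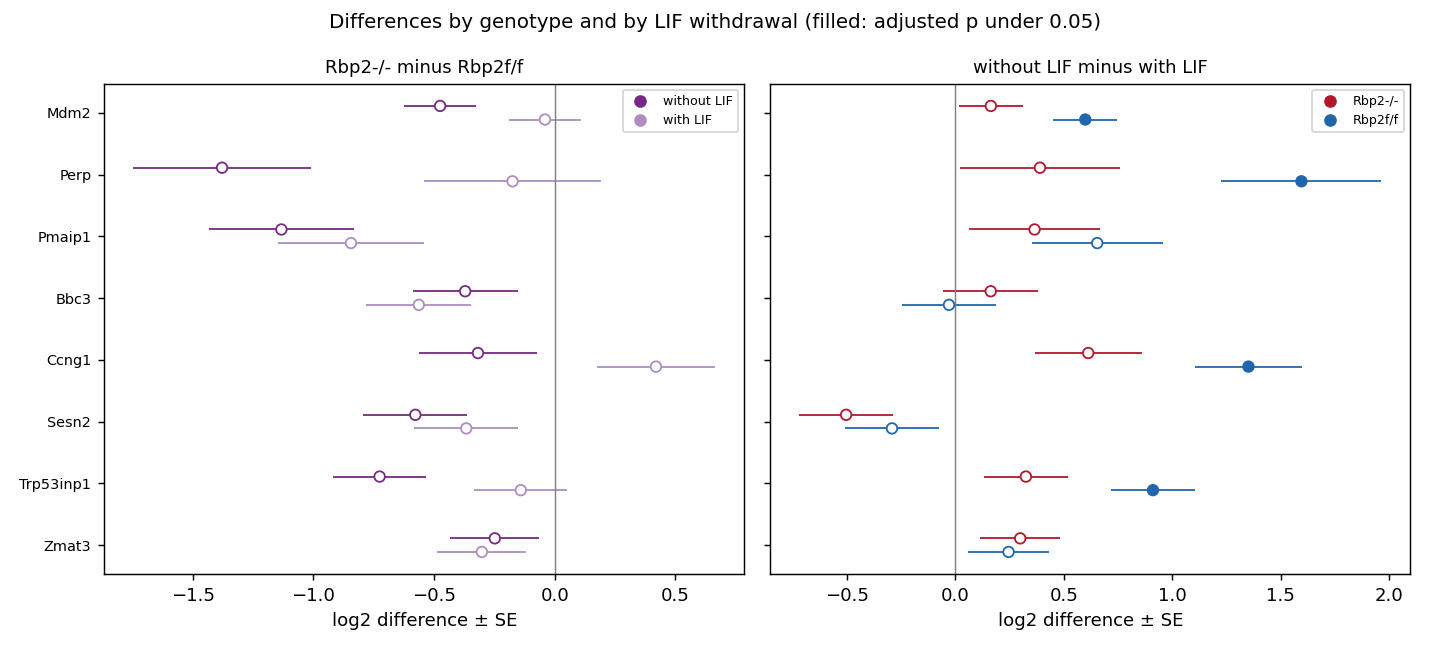
Log2 differences with standard errors (horizontal axes) of the 8 measured genes, for Rbp2-/- minus Rbp2f/f on the left and for medium without LIF minus medium with LIF on the right; filled points have an adjusted p under 0.05. Filled points appear for Mdm2, Perp, Ccng1 and Trp53inp1 on withdrawal in Rbp2f/f only, and without LIF all 8 genotype differences lie below 0.

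In Rbp2-/- cells LIF withdrawal gave no call among the 8 members, while 7.26% of all tested genes were called higher, 8.08% lower and 15.3% in either direction. Of the 8 members, 7 had a positive difference and 1, Sesn2, a negative one, with a median of 0.31 against 0.00 for all tested genes. That median was 0.05, with 3 members negative, without replicate 1 of Rbp2-/- with LIF, 0.21 without replicate 2 of Rbp2-/- lacking LIF, and 0.55 without the dim replicate 2 of Rbp2-/- with LIF. In Rbp2f/f the members' median was 0.63, against -0.02 for all tested genes. At an unadjusted p under 0.05, 2 of the 8 members passed in Rbp2-/- and 30.9% of all tested genes did.

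Ccng1 read 3367.6 and 2809.1 in Rbp2-/- without LIF, against 1616.0 and 2488.5 with LIF, a log2 difference of 0.61 ± 0.25 (limma adjusted p = 0.13). Its arrays did not overlap, and 1 of its 3 probe sets passed in the fit over all probe sets (0.83 ± 0.21, adjusted p = 0.037). Trp53inp1 read 1502.7 and 1655.3 without LIF, against 1011.9 and 1556.0 with LIF, and its arrays overlapped (0.33 ± 0.19, adjusted p = 0.29). Perp read 444.5 and 760.9 without LIF, against 295.1 and 653.1 with LIF, and overlapped as well (0.39 ± 0.37, adjusted p = 0.51).

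Mdm2 read 999.4 and 960.4 in Rbp2-/- without LIF, against 839.3 and 906.8 with LIF. These arrays did not overlap, and the difference of 0.16 ± 0.15 missed the threshold (limma adjusted p = 0.49). Sesn2 read 179.7 and 215.8 without LIF, against 261.8 and 311.6 with LIF, and was the only member whose arrays without LIF both lay below those with LIF (-0.50 ± 0.22, adjusted p = 0.15). Pmaip1 and Bbc3 overlapped between the media, at 0.37 ± 0.30 and 0.16 ± 0.22, and Zmat3 did not overlap, at 0.30 ± 0.18. Arrays were higher without overlap for 3 of the 8 members, against 28.8% of all tested genes, and lower for 1, against 29.8%. Without the dim replicate 2 of Rbp2-/- with LIF, Ccng1 and Trp53inp1 were called, at 0.92 and 0.63, and on the intensities as deposited, where the median of all genes was 0.39, the same 2 genes were called.

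The withdrawal effect was tested for a difference between genotypes by the interaction, the effect in Rbp2-/- minus that in Rbp2f/f. No member passed (lowest adjusted p = 0.44), and 0 of 10916 genes did. At an unadjusted p under 0.05, 1 member passed, Perp, and 11.2% of all tested genes did. The interaction was -1.20 ± 0.52 for Perp, -0.74 ± 0.35 for Ccng1, -0.59 ± 0.27 for Trp53inp1 and -0.43 ± 0.21 for Mdm2. For Pmaip1, Sesn2, Bbc3 and Zmat3 it was -0.29 ± 0.43, -0.21 ± 0.30, 0.19 ± 0.31 and 0.05 ± 0.26. The 4 genes called in Rbp2f/f and not in Rbp2-/- were therefore not shown to respond differently in the genotypes. The members' median interaction was -0.36, against 0.01 for all tested genes, and on the intensities as deposited it was 0.03 against 0.31. Leaving out the dim replicate 2 of Rbp2-/- with LIF gave -0.18, and leaving out its fellow replicate 1 gave -0.49, with lowest adjusted p of 0.67 and 0.16.

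Between genotypes without LIF, all 8 members read lower in Rbp2-/- than in Rbp2f/f on their brightest probe set, and in each of the 8 both Rbp2-/- arrays lay below both Rbp2f/f arrays. The same held for 29.0% of all tested genes, and the opposite, which no member showed, for 26.0%. None of the 8 passed the adjusted threshold (limma), as 0 of 10916 genes did, and 5 members and 14.2% of all tested genes had an unadjusted p under 0.05. The members' median difference was -0.53, against -0.01 for all tested genes. These members had been chosen with this shift in the p53 targets known, so the count is a description. The same holds for member counts and medians in the other comparisons that use these arrays.

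Perp read 444.5 and 760.9 in Rbp2-/- without LIF, against 1299.1 and 1824.7 in Rbp2f/f. The lower Rbp2f/f array was still well above the higher Rbp2-/- array, and the log2 difference was -1.38 ± 0.37 (limma adjusted p = 0.17). Pmaip1 read 381.5 and 685.6 in Rbp2-/-, against 1003.1 and 1300.9 in Rbp2f/f, a difference of -1.13 ± 0.30 (adjusted p = 0.17). Replicate 1 of Rbp2-/- was the lower of its pair for both genes, and without it the differences were -0.997 and -0.722, with adjusted p = 0.90 for each. Bbc3, the other BH3-only gene, read 236.5 and 212.6 in Rbp2-/-, against 262.4 and 330.9 in Rbp2f/f (-0.37 ± 0.22).

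Trp53inp1 read 1502.7 and 1655.3 in Rbp2-/- without LIF, against 2527.8 and 2713.5 in Rbp2f/f, with pairs of arrays close together and a difference of -0.73 ± 0.19 (limma adjusted p = 0.17). Mdm2 read 999.4 and 960.4 in Rbp2-/-, against 1350.8 and 1385.4 in Rbp2f/f (-0.48 ± 0.15, adjusted p = 0.21). Sesn2 read 179.7 and 215.8 in Rbp2-/-, against 276.3 and 329.7 in Rbp2f/f (-0.58 ± 0.22, adjusted p = 0.27). Ccng1 and Zmat3 had the smallest differences of the 8, at -0.32 ± 0.25 and -0.25 ± 0.18.

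Without LIF, the direction between genotypes depended on the probe set for Ccng1 and Trp53inp1. Probe set 1450016_at of Ccng1 read 2685.5 and 1913.6 in Rbp2-/- without LIF, against 1758.9 and 1698.5 in Rbp2f/f, and so was higher in Rbp2-/- where the gene's other probe sets were lower. The dimmer probe set of Trp53inp1, 1416927_at, read 153.9 and 218.0 in Rbp2-/-, against 146.3 and 142.4 in Rbp2f/f, opposite to the brighter 1416926_at. For Mdm2 and Sesn2 each tested probe set was lower in Rbp2-/- without LIF. No probe set of these 4 genes passed the threshold between genotypes in either medium.

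**Figure D3:**
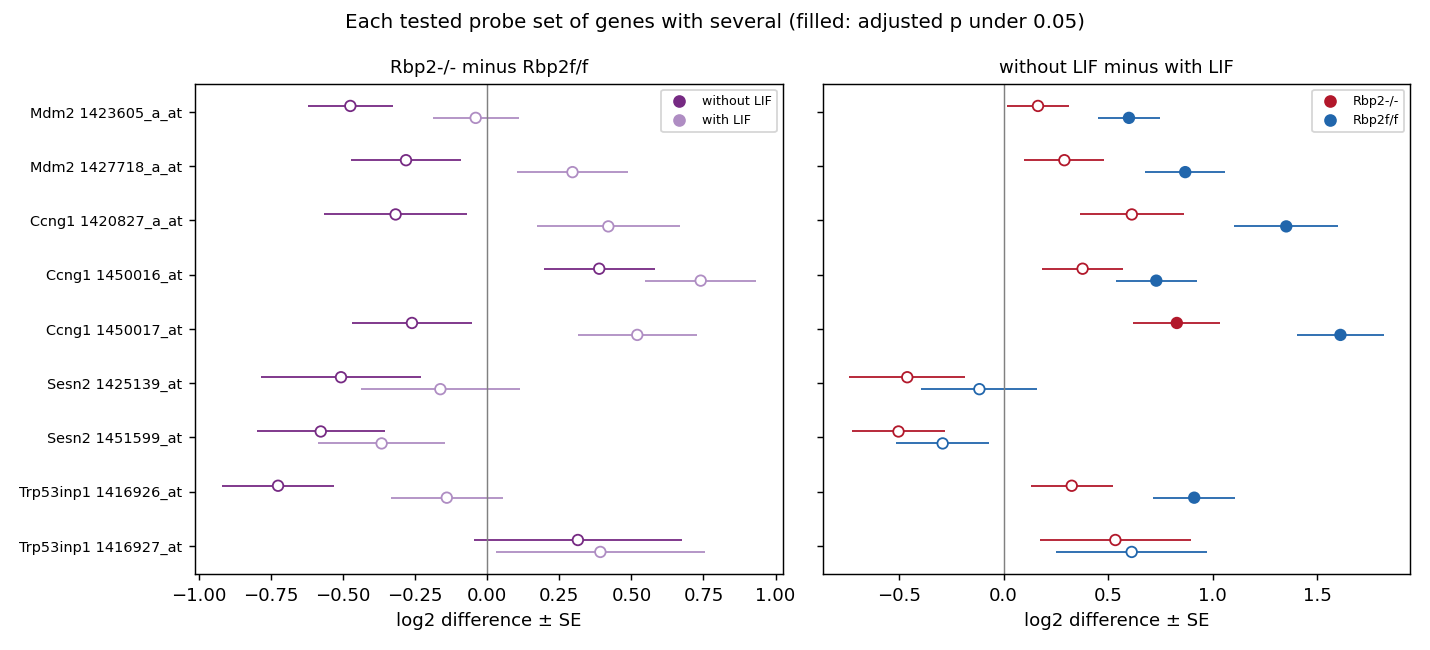
Log2 differences with standard errors (horizontal axes) of every tested probe set of the 4 genes that have several, by genotype on the left and by LIF withdrawal on the right; filled points have an adjusted p under 0.05 over all 20967 probe sets tested. Without LIF, 1450016_at of Ccng1 and 1416927_at of Trp53inp1 lie above 0 in the genotype panel, opposite to the other probe sets of their genes.

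Markers of other cell types moved with LIF withdrawal and with the genotype. Of 9 simple epithelium markers 5 rose and 1 fell on withdrawal in Rbp2f/f, and 0 were called in Rbp2-/-, where 4 had an unadjusted p under 0.05 (limma), against 30.9% of all tested genes. Of 7 tested fibroblast markers 2 rose in Rbp2-/- and 5 in Rbp2f/f, and of 5 tested markers of extraembryonic endoderm 4 rose in Rbp2-/- and 5 in Rbp2f/f, where 7.26% of all tested genes rose in Rbp2-/- and 13.8% in Rbp2f/f. Between genotypes without LIF all 9 simple epithelium markers had a negative difference (median -1.24), with 0 called. Their summed intensity was 13691 and 18182 in Rbp2-/-, against 21938 and 28826 in Rbp2f/f. All 8 ES cell markers were negative too (median -0.40, 0 called). Of the tested markers 4 of 7 were negative for fibroblasts and 3 of 5 for endoderm. Sums over all measured markers, tested or not, were 3711 and 1302 in Rbp2-/- against 1611 and 1475 in Rbp2f/f for 9 fibroblast genes, where Col1a1 made up 2766.2 of the 3711. For 8 endoderm genes they were 802 and 749 in Rbp2-/- against 841 and 637 in Rbp2f/f. With LIF the epithelial sum was 9589 and 14498 in Rbp2-/-, against 12005 and 10246 in Rbp2f/f. No marker of these lists read 0 on any array, and their part in the differences of the p53 pathway genes was not tested.

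With LIF, no member passed between genotypes (lowest limma adjusted p = 0.29), as 0 of 10916 genes did. At an unadjusted p under 0.05 there were 2 members and 13.0% of all tested genes. Pmaip1 read 337.6 and 459.0 in Rbp2-/-, against 591.8 and 875.2 in Rbp2f/f (-0.84 ± 0.30), and Bbc3 read 165.0 and 238.1 in Rbp2-/-, against 279.4 and 324.1 in Rbp2f/f (-0.56 ± 0.22). Sesn2 and Zmat3 also had both Rbp2-/- arrays below both Rbp2f/f arrays, at -0.37 ± 0.22 and -0.30 ± 0.18, which made 4 of 8 members, against 21.4% of all tested genes. None had both above, against 18.6%. Mdm2, Perp, Trp53inp1 and Ccng1 overlapped between the genotypes, at -0.04 ± 0.15, -0.17 ± 0.37, -0.14 ± 0.19 and 0.42 ± 0.25. These counts and values are for the brightest probe sets. The other probe sets of Ccng1 were higher in Rbp2-/- without overlap, at 0.74 ± 0.19 and 0.52 ± 0.21 (limma adjusted p = 0.22 and 0.37). The second tested probe sets of Mdm2, Trp53inp1 and Sesn2 overlapped, at 0.30 ± 0.19, 0.39 ± 0.36 and -0.16 ± 0.28. The members' median was -0.24, against -0.01 for all tested genes, but it depended on single arrays. Leaving out the dim replicate 2 of Rbp2-/- with LIF gave -0.50, and leaving out its fellow replicate 1 gave -0.04, with 4 of 8 members negative.

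Averaged over both media, which compares 4 Rbp2-/- arrays with 4 Rbp2f/f arrays, 0 of 8 members passed, while 14 of 10916 genes did, or 0.128% (0.0733% higher and 0.0550% lower). At an unadjusted p under 0.05, 6 members passed on their brightest probe set, and 16.6% of all tested genes did. The second tested probe sets of Mdm2, Trp53inp1 and Sesn2 averaged 0.007 ± 0.14, 0.35 ± 0.26 and -0.34 ± 0.20. That of Trp53inp1 was thus opposite in sign to its brightest probe set. Pmaip1 had the smallest p of the members, at -0.99 ± 0.21 (limma adjusted p = 0.076). It was called on the intensities as deposited (adjusted p = 0.042), where the median of all genes was itself -0.13. It was also called with a block on the replicate number (limma adjusted p = 0.022), though no label says that this number pairs the samples. With an array left out its difference ranged from -1.2 to -0.784. On the brightest probe sets, Pmaip1, Bbc3, Sesn2 and Zmat3 were lower in Rbp2-/- without overlap in each medium. These were 4 of 8 members against 6.93% of all tested genes, and none was higher in each, against 6.67%. This comparison includes the arrays without LIF, and the members had been chosen with the genotype shift there known. The member counts in it are therefore descriptions. Probe set 1450016_at of Ccng1 was higher in each medium without overlap, unlike the gene's other probe sets. It averaged 0.56 ± 0.14 (limma adjusted p = 0.12 over all tested probe sets). The shared pattern of the 4 lower genes was not tested, and Bbc3, Sesn2 and Zmat3 averaged -0.47 ± 0.15, -0.47 ± 0.15 and -0.28 ± 0.13.

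Outside the 10 named genes, a wider list of 58 p53 regulators and targets was drawn up by role, of which 53 had a named probe set and 48 were tested. On withdrawal in Rbp2f/f 9 rose and 10 fell, so 39.6% were called, against 26.7% of all tested genes, and the list's median was 0.04, against -0.02. On withdrawal in Rbp2-/- 1 rose and 5 fell, or 12.5%, against 15.3% of all tested genes, with a median of -0.20, against 0.00. Between genotypes 0 of 48 passed in either medium or averaged, and at an unadjusted p under 0.05 there were 12 without LIF, against 14.2% of all tested genes, and 5 with LIF, a share below the 13.0% of all tested genes.

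Regulators of p53 that were called on withdrawal all fell, 2 of 17 in Rbp2-/-, near the 8.08% of all tested genes that were called lower, and 7 of 17 in Rbp2f/f, where 13.0% were. Usp7, a deubiquitinase of MDM2 and p53, fell to 976.2 and 825.7 in Rbp2f/f without LIF, against 1909.0 and 1888.4 with LIF (-1.07 ± 0.14, limma adjusted p = 0.0013). In Rbp2-/- it was also lower without overlap, and narrowly missed the threshold (-0.47 ± 0.14, adjusted p = 0.053). Its interaction did not pass (0.59 ± 0.20, adjusted p = 0.39). Sirt1, a deacetylase of p53, fell in both genotypes, at a log2 difference of -1.46 ± 0.22 in Rbp2-/- and -1.61 ± 0.22 in Rbp2f/f (adjusted p = 0.0029 and 0.0015). Pml, which organises the nuclear bodies where p53 is modified, fell in both as well, at -1.87 ± 0.24 in Rbp2-/- and -1.44 ± 0.24 in Rbp2f/f (adjusted p = 0.0014 and 0.0037).

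Targets moved both ways, among 15.3% of all tested genes called in Rbp2-/- and 26.7% in Rbp2f/f, and the counts in Rbp2-/- are few and near that share. Of 12 arrest and DNA repair targets 3 rose and 2 fell in Rbp2f/f, while 1 fell in Rbp2-/-. Of 12 tested apoptosis targets 3 rose and 1 fell in Rbp2f/f, while 2 fell in Rbp2-/-. Of 7 tested metabolic, secreted or other targets 3 rose in Rbp2f/f and 1 rose in Rbp2-/-. Gadd45a, a growth arrest and DNA damage response gene, was lower without LIF in both genotypes, at 106.9 and 147.9 in Rbp2-/- without LIF, against 503.5 and 416.0 with LIF (-1.74 ± 0.21, limma adjusted p = 0.0010). In Rbp2f/f it read 152.9 and 171.4 without LIF, against 490.3 and 397.6 with LIF (-1.36 ± 0.21, adjusted p = 0.0027).

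Bid, a BH3-only gene, fell in Rbp2-/- to 190.7 and 322.9 without LIF, against 663.1 and 1007.5 with LIF (-1.66 ± 0.29, limma adjusted p = 0.0064). In Rbp2f/f its difference was -0.42 ± 0.29 (adjusted p = 0.32). The interaction for Bid was -1.24 ± 0.41 (adjusted p = 0.39), so the genotypes were not shown to differ in it. Cdkn1a, which encodes the CDK inhibitor p21 and is the classical arrest target of p53, rose in Rbp2f/f to 1502.7 and 2231.7 without LIF, against 572.6 and 318.1 with LIF (2.06 ± 0.41, adjusted p = 0.0070). In Rbp2-/- it read 924.3 and 1056.2 without LIF, against 397.4 and 1006.6 with LIF, with arrays that overlapped (0.63 ± 0.41, adjusted p = 0.33). The interaction for Cdkn1a was -1.43 ± 0.58 (adjusted p = 0.43), so a difference between genotypes was not shown.

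**Figure D4:**
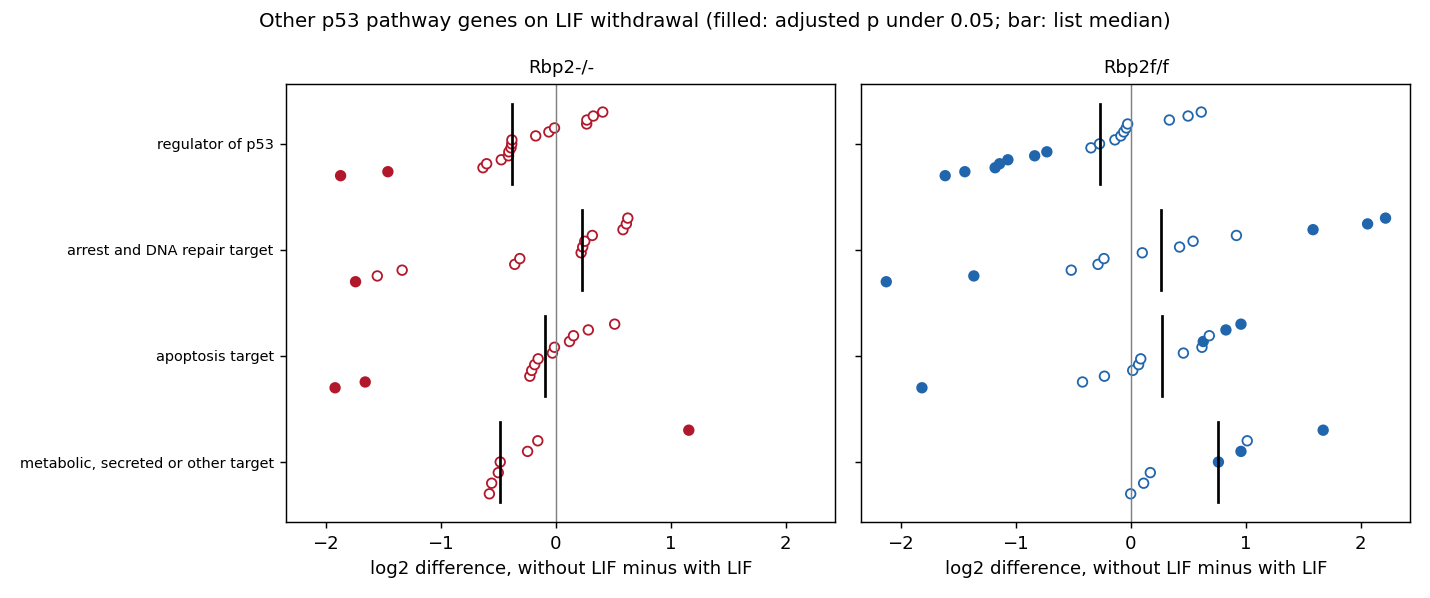
Log2 differences on LIF withdrawal (horizontal axes, without LIF minus with LIF) of the 48 tested genes of the wider list, grouped by role, in Rbp2-/- on the left and Rbp2f/f on the right; each point is a gene, filled points have an adjusted p under 0.05 and bars are list medians. Called regulators of p53 lie below 0 in both genotypes, 2 in Rbp2-/- and 7 in Rbp2f/f, and called targets lie on both sides.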

How the data were processed

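The deposited values are linear intensities per probe set, already summarised by the authors, per the file headers and values, with no log or centring; how they were summarised, corrected for background and scaled is not given in the sources used here. The 64 control probe sets were left out and the 8 arrays quantile normalized. Of 45101 probe sets, 34958 had 1 gene symbol. On the scale log2(intensity + 16), which understates changes of dim genes, the brightest probe set on average stood for a gene, and genes below the 40th percentile of mean level were dropped. limma 3.58.1 in R 4.3.3 (lmFit on 4 group means over all 8 arrays, eBayes with trend, 4 residual degrees of freedom) gave two-sided p-values for 6 contrasts. The pipeline was tested on simulated data. The number of arrays limits the precision. Promoter sequences came from RefSeq.

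The genes named are all members of the list with a named probe set, Kdm5a and Cdkn1a. Added to these are up to 4 called genes of the wider list with the smallest p per contrast. The last are the 3 genes most like Mdm2 among those with a plain symbol. Members and lists were chosen with earlier results of these data known. Alternatives were the intensities as deposited, median centring, other pseudocounts, no filter, other variance models, array weights, other probe set summaries, a block on the replicate number, and each array left out in turn.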

Additional observations from a re-analysis of the deposited data

How the results depend on the processing

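Of 864 values of the 8 members over 6 contrasts and 18 alternatives, 817 kept their direction and side of the threshold, 10 lost a call, 12 gained one and 25 changed sign, none of them from a called value. The count of members called with LIF and for the interaction was 0 under all 18. Between genotypes without LIF it was 2 with array weights (Perp and Trp53inp1), 1 with the replicate number as a block (Pmaip1, limma adjusted p = 0.044), and 0 with any array left out. Averaged over media it was 1 on the intensities as deposited, 1 with the replicate block, each time Pmaip1 (limma adjusted p = 0.042 and 0.022), and 0 with any array left out. On withdrawal in Rbp2-/- it was 2 as deposited, 1 when median centred, 1 with probe sets averaged, and 0 to 2 with an array left out. In Rbp2f/f it was 3 as deposited and 3 when median centred, Mdm2 being lost each time, 2 with probe sets averaged and 1 to 4 with an array left out. The cause of these changes was not tested.

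Signs turned for Bbc3 on withdrawal in Rbp2f/f (0.062 as deposited, 0.034 median centred), Ccng1 averaged over media (-0.0987 and -0.0688), the interactions of Pmaip1 and Sesn2 as deposited (0.11 and 0.13), and Trp53inp1 with LIF with probe sets averaged (0.13). With an array left out the ranges that crossed 0 were -0.146 to 0.071 for Mdm2, -0.728 to 0.376 for Perp and -0.447 to 0.166 for Trp53inp1 between genotypes with LIF. They were -0.112 to 0.211 for Ccng1 averaged over media and -0.188 to 0.132 for Bbc3 on withdrawal in Rbp2f/f. On withdrawal in Rbp2-/- they were -0.162 to 0.944 for Perp, -0.045 to 0.777 for Pmaip1 and -0.081 to 0.41 for Bbc3. For the interaction they were -0.704 to 0.123 for Pmaip1, -0.0527 to 0.438 for Bbc3, -0.442 to 0.018 for Sesn2 and -0.159 to 0.267 for Zmat3.

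The deviations of same-numbered arrays from their group means correlated at -0.07 to 0.27 over the 6 pairs of groups. They were 0.25 to 0.27 for the 3 pairs that leave out Rbp2f/f with LIF, and -0.07 to 0.00 for the 3 that include it, so the numbers were not shown to pair the samples of all groups and no label says that they do. With the replicate block 5 members were called on withdrawal in Rbp2f/f, Pmaip1 beside the other 4. Over all genes the calls ranged over the alternatives from 551 to 2486 on withdrawal in Rbp2-/- (1674 as reported), from 833 to 3297 in Rbp2f/f (2920), from 0 to 225 between genotypes without LIF (0), from 0 to 25 with LIF (0) and from 0 to 98 averaged (14). As deposited, the median of all genes was 0.39 on withdrawal in Rbp2-/-, -0.28 between genotypes with LIF, 0.31 for the interaction and -0.13 averaged.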
